A study of Mus musculus with 24 samples.

Results

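The 9 genes described here are Aif1, Csf1r, Cx3cr1, P2ry12, Tmem119, Laptm5, Ly86, Mpeg1 and Lyz2, a list of microglia identity genes read in cultures of mouse oligodendrocytes. They were taken by name from the 55359 rows of the deposited table of counts, and all 9 were found. The choice used no measured value, although it was made with earlier results of these data known. The cultures came from the cortices of C57BL6/J pups on postnatal days 5 to 7, as cells sorted with magnetic beads against O4, a surface antigen of immature oligodendrocytes. All wells, controls included, were differentiated for 3 days mainly with triiodothyronine and then exposed, or not, to ethanol over 3 more days. Experiment 1 compared 30 mM ethanol (6 wells) with 0 mM (6 wells), and experiment 2 did the same with 10 mM, again over 6 wells each. The labels give the experiments as 2 batches. Controls had an incubator of their own, so that an incubator effect and an ethanol effect cannot be told apart, and neither can dose and experiment. The labels number the wells as biological replicates and name no litter or animal for them, so p-values measure the spread between wells, which may be technical.

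Microglia are the resident macrophages of the brain. They arise from the yolk sac, depend on signalling through the CSF1 receptor, and survey the tissue with motile processes. They engulf debris and myelin, and in culture away from neurons and astrocytes they are known to lose part of their surface receptors. Aif1 encodes IBA1, an actin-bundling protein widely used to stain microglia. Csf1r encodes the receptor for CSF1 and IL34, Cx3cr1 the receptor for fractalkine (encoded by Cx3cl1), and P2ry12 the ADP receptor that guides process extension. Tmem119 encodes a membrane protein that marks microglia among brain macrophages. Laptm5 encodes a lysosomal membrane protein of blood-lineage cells, Ly86 the MD-1 partner of the receptor CD180, Mpeg1 the pore-forming perforin-2, and Lyz2 lysozyme. Several of these genes are also used by other macrophages, so the list does not by itself part microglia from them.

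RNA was read by 3′ tag sequencing, which counts fragments near the 3′ end of each transcript. The total count per well was 1184609 to 1817028. A count of 3 corresponded to 1.65 to 2.53 CPM, a gene's count scaled to the total count of its well. This floor covers counting error only. Oligodendrocyte markers were present in all wells, with a summed level of 10 genes, among them Mbp, from 6724 to 14496 CPM. The highest sum was in a 30 mM well, whose group had a median of 9173 CPM.

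The 9 genes were far higher in experiment 2 than in experiment 1, with and without ethanol. Their summed level was lowest at 402, 589 at the median and 708 CPM at the highest in the experiment 1 controls, against 3599.7, 3819 and 3865 CPM in the experiment 2 controls. The 30 mM wells had 363 to 528 CPM (median 488) and the 10 mM wells 3484 to 3893 CPM (median 3661). No well of experiment 1 reached the level of any well of experiment 2. As a share of all counts, the 9 genes took 0.0589% at the median in the experiment 1 controls and 0.382% in those of experiment 2. In bulk samples, fewer cells of a type and less RNA per cell cannot be told apart.

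**Figure D1:**
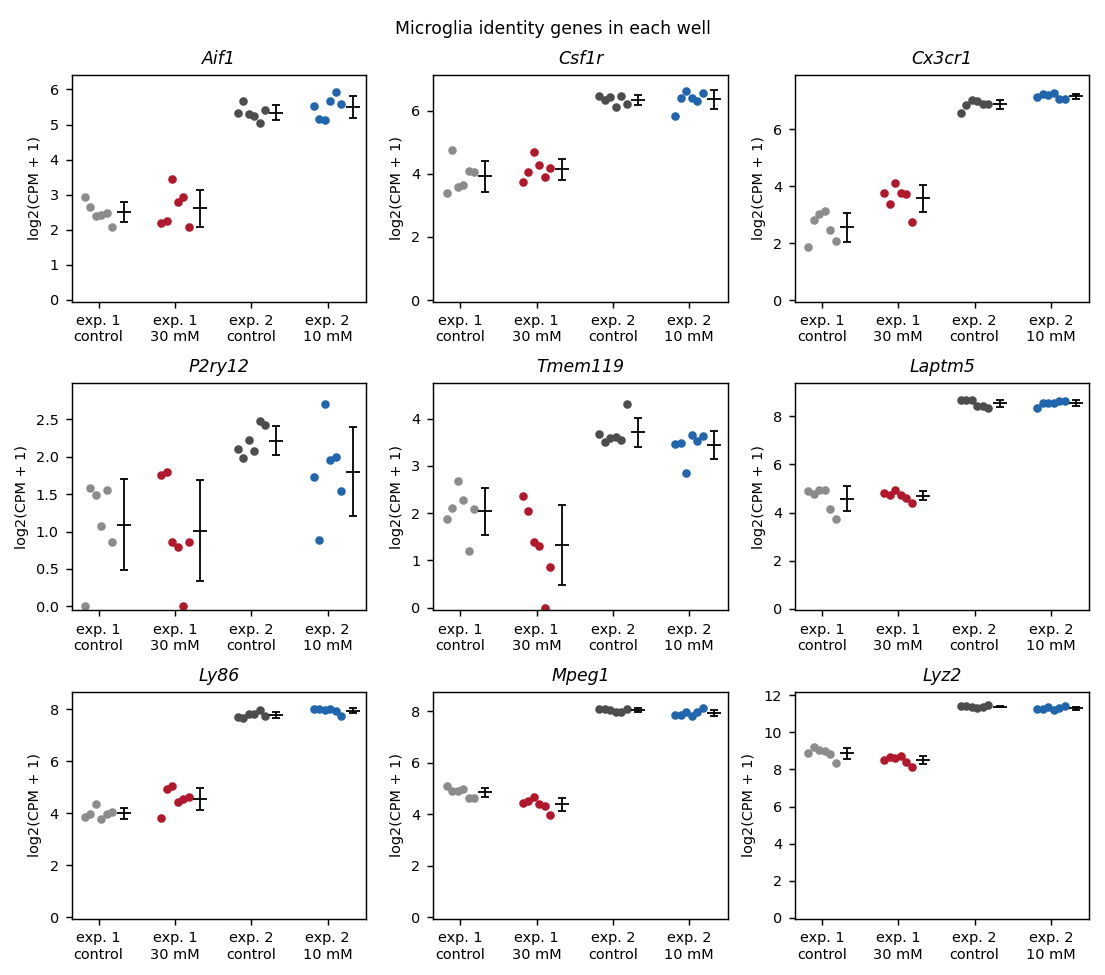
Level of each of the 9 genes by well, as log2(CPM + 1) on the vertical axis, in the 4 groups of 6 wells; points are wells, and the dash with its bar is the mean ± SD of the group. Wells of experiment 1 lie below those of experiment 2 for every gene except P2ry12, whose wells overlap when ethanol wells are included.

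Among the receptors, Cx3cr1 had 2.68, 5.26 and 7.70 CPM (lowest, median and highest) in the experiment 1 controls and 94.7, 117 and 130.1 CPM in the experiment 2 controls. The groups did not overlap, which holds for 10.0% of genes tested in the direction lower in experiment 1, and the log2 fold change, experiment 1 controls minus experiment 2 controls, was -4.36 (SE 0.147, edgeR adjusted p = 6.32e-43). Cx3cr1 entered this test only through the experiment 2 wells, where it is high. For comparison, 43.6% of all 13479 genes tested passed an adjusted p of 0.05 between these control groups, and 22.3% passed in the lower direction. Csf1r had 9.37, 13.5 and 25.9 CPM in the experiment 1 controls and 68.1, 82.3 and 88.1 CPM in those of experiment 2. Its difference of -2.40 (SE 0.134, edgeR adjusted p = 8.63e-28) left the groups apart as well. These experiment 1 values rest on 4 to 14 counts per well for Cx3cr1 and on 14 to 39 for Csf1r.

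P2ry12 and Tmem119, the members most particular to microglia in the unperturbed brain, had few counts. P2ry12 had 0 to 4 counts in the 12 wells of experiment 1 and 1 to 8 counts in the 12 of experiment 2. It did not pass the filter on low counts in any comparison. With no such filter, its log2 difference between the control groups was -1.35 (SE 0.505, edgeR adjusted p = 0.0405). Tmem119 had 1.30, 3.29 and 5.42 CPM in the experiment 1 controls and 10.4, 11.1 and 18.8 CPM in the experiment 2 controls. Its log2 difference was -1.81 (SE 0.287, edgeR adjusted p = 1.78e-07). The highest of these, in control replicate 6 of experiment 2, stood for 26 counts.

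Aif1, the IBA1 gene, had 3.26, 4.47 and 6.70 CPM in the experiment 1 controls and 31.8, 38.8 and 50.4 CPM in those of experiment 2, a log2 difference of -3.00 (SE 0.193, edgeR adjusted p = 4.3e-24). It stood under 10 counts in 10 of the 12 wells of experiment 1. The filter on low counts asked here for 6.96 CPM in 6 wells. Aif1 and Tmem119 reached it in 0 of 6 experiment 1 controls and Cx3cr1 in 2 of 6, so these members were tested only through experiment 2, where they are high, and a difference was built into their being tested. The other 5 tested members passed on the experiment 1 controls alone.

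The lysosomal and secreted members had the most counts. Laptm5 had 12.2, 27.7 and 29.7 CPM in the experiment 1 controls and 325, 370.5 and 407 CPM in those of experiment 2, a log2 difference of -3.86 (SE 0.0981, edgeR adjusted p = 3.23e-52). For Ly86 the values were 12.7, 14.8 and 19.3 CPM against 201, 221 and 248 CPM (log2 difference -3.82, SE 0.101, edgeR adjusted p = 9.58e-51). Laptm5 and Ly86 thus differed by similar amounts, and no experiment 1 well approached those of experiment 2. Mpeg1 had 23.6, 28.7 and 32.8 CPM against 246, 268 and 272 CPM (log2 difference -3.17, SE 0.0866, edgeR adjusted p = 8.28e-50). Lyz2 had 324, 490.1 and 596 CPM in the experiment 1 controls and 2540.2, 2690.2 and 2799 CPM in those of experiment 2. Its log2 difference of -2.43 (SE 0.0686, edgeR adjusted p = 8.52e-49) was close to that of Csf1r. Lyz1, a near copy of Lyz2 with which reads could be shared, had at most 9 counts in a well.

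The wells with ethanol, which the control comparison did not use, lay in the same order. Between the 30 mM wells and the 10 mM wells, where 31.8% of 13347 tested genes passed and 15.4% in the lower direction, the 5 members that passed the filter on the 30 mM wells alone (Csf1r, Laptm5, Ly86, Mpeg1 and Lyz2) were lower at 30 mM. Their log2 differences ran from -2.26 for Csf1r (SE 0.141, edgeR adjusted p = 9.51e-19) to -3.84 for Laptm5 (SE 0.0945, edgeR adjusted p = 7.27e-36). Cx3cr1 had -3.59 there (SE 0.125, edgeR adjusted p = 2.69e-29) and Aif1 -3.04 (SE 0.209, edgeR adjusted p = 3.41e-17), but both were tested only through the 10 mM wells, as 5 and 1 of the 6 wells at 30 mM reached the filter's level. This comparison holds dose and experiment together.

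The other cell lists were then read in the same control wells. Over all genes tested, the median log2 difference there was -0.01, and 22.3% passed as lower in experiment 1. Of 29 general myeloid genes, 28 were tested and passed as lower in experiment 1, although 15 of them alone met the filter in the experiment 1 controls. They include Tyrobp, an adaptor of myeloid receptors (-3.78), and the complement genes C1qb (-3.41), C1qc (-3.29) and C1qa (-2.87). Genes of activated microglia passed as lower in 5 of 6 cases tested, and 5 of the 6 met the filter in the experiment 1 controls alone. Trem2, a lipid receptor, had -4.42, Spp1, which encodes osteopontin, -3.32, Lpl, a lipoprotein lipase, -3.25 and Gpnmb, a glycoprotein of lysosome-rich cells, -3.12. The 5 tested markers of border macrophages were lower as well. Of these, 2 met the filter in the experiment 1 controls, Pf4 (-2.02) and Stab1 (-2.48). Ms4a7 (-2.40) and Mrc1, the mannose receptor (-2.77), were tested only through experiment 2. The exception among activated genes was Axl, a receptor tyrosine kinase gene, which was higher in experiment 1 (0.66).

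**Figure D2:**
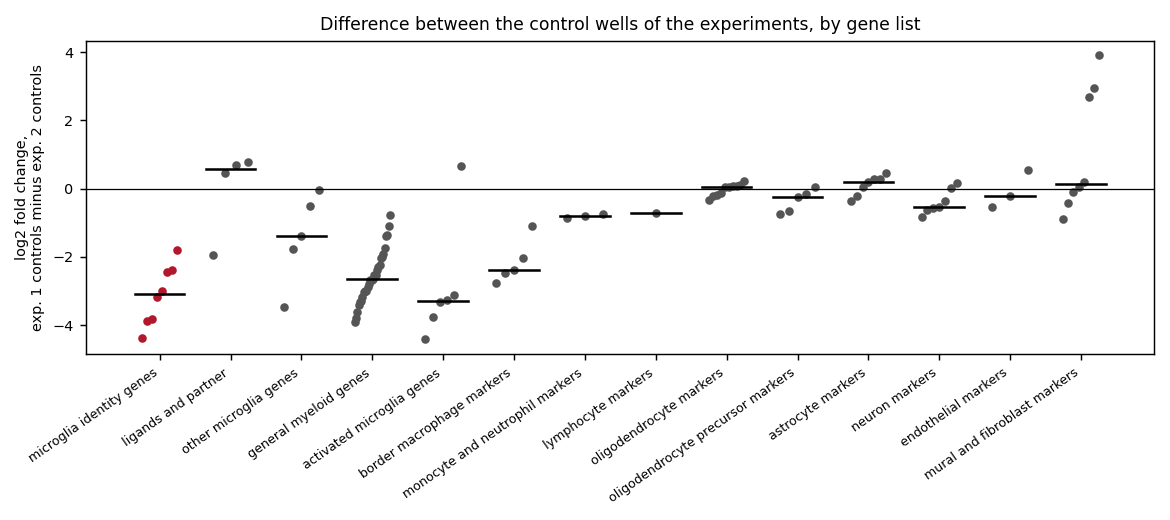
Log2 fold change between the control wells of the experiments (experiment 1 minus experiment 2, vertical axis) for each tested gene, by list; the bar is the median of the list. The 8 tested microglia identity genes lie from -4.36 to -1.81 with a median of -3.08, and oligodendrocyte markers have a median of 0.04. Cx3cr1 and Tmem119, the ends of that range, and Aif1 were tested only through the experiment 2 wells, where they are high.

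Of the 11 other microglia genes, 5 could be tested and 4 passed as lower in experiment 1. Over all genes tested, 22.3% passed as lower and 21.3% as higher in experiment 1. Only 3 of the 5 met the filter in the experiment 1 controls alone. Fcrls, an Fc receptor-like gene of microglia, had -3.47 (SE 0.175, edgeR adjusted p = 9.05e-31), the UDP receptor gene P2ry6 -1.40 and Olfml3 -0.50. Fcrls, too, was tested only through experiment 2, since 2 of 6 experiment 1 controls reached the filter's level. Sall1, a transcription factor gene, did not pass (-0.04, SE 0.146, edgeR adjusted p = 0.843). Monocyte and neutrophil markers summed to 16.9 to 43.2 CPM in the experiment 1 controls and 43.8 to 65.1 CPM in those of experiment 2. The 3 that could be tested, Plac8 (-0.87), Ccr2 (-0.79) and Mmp8 (-0.74), passed as lower in experiment 1, each through the experiment 2 wells alone. S100a9 and Retnlg were at 0 in every well, and Ly6c2 had at most 1 count. Lymphocyte markers summed to 9.36 to 20.7 CPM and 12.0 to 38.6 CPM, with Nkg7 at 0 throughout, and the 1 tested, Cd3g, passed as lower (-0.70). Neuron markers summed to at most 574 CPM in experiment 1 and at least 597 CPM in experiment 2, and 3 of 7 passed as lower in experiment 1. Of 5 oligodendrocyte precursor markers 3 passed as lower, and of 7 astrocyte markers 4 passed as higher and 2 as lower. Oligodendrocyte markers passed in 3 of 10 cases, 1 higher and 2 lower in experiment 1. Mural and fibroblast markers summed to 674 to 853 CPM in the experiment 1 controls and 313 to 407 CPM in those of experiment 2, and 3 of 8 passed as higher and 2 as lower in experiment 1. The part of any of these lists in the members' difference was not tested.

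**Figure D3:**
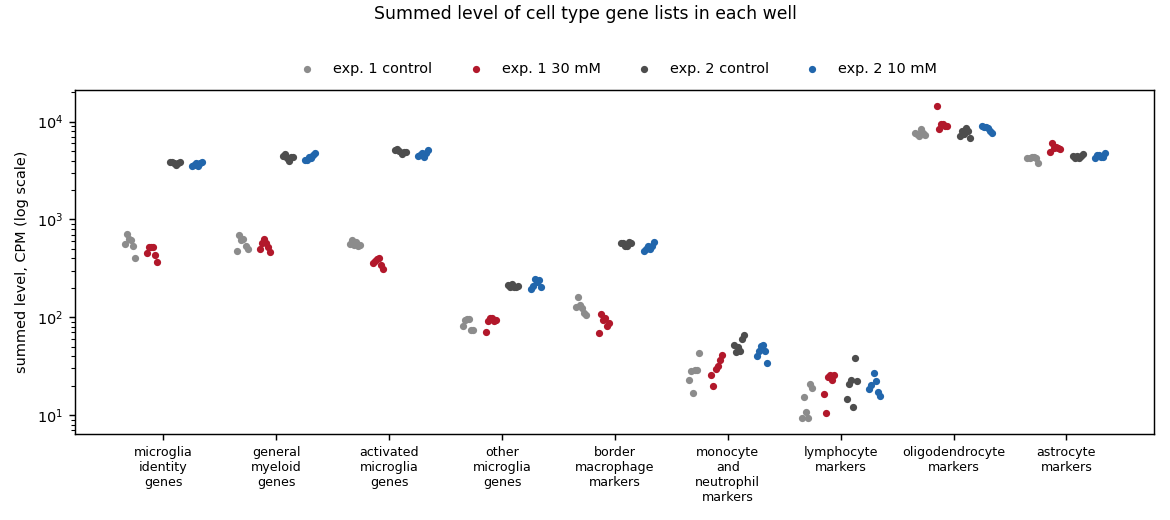
Summed CPM of each cell type list (log scale, vertical axis) in each well, with the 4 groups side by side. Microglia, myeloid and border macrophage lists part the experiments, whereas oligodendrocyte and astrocyte sums of the control groups overlap and their highest wells are at 30 mM.

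The ligands of the receptors went the other way. Csf1 had 197, 215 and 230 CPM (lowest, median and highest) in the experiment 1 controls and 120, 125 and 144 CPM in those of experiment 2. Every experiment 1 control lay above every experiment 2 control, and the log2 difference was 0.79 (SE 0.0691, edgeR adjusted p = 6.67e-17). Such a separation in this direction holds for 8.88% of genes tested. Cx3cl1 also had no overlap (42.2 to 56.7 CPM against 24.8 to 39.1 CPM) and differed by 0.68 (SE 0.120, edgeR adjusted p = 1.82e-06). Il34, the other ligand of the CSF1 receptor, did not pass (0.46, SE 0.261, edgeR adjusted p = 0.147). Cd180, which encodes the receptor that MD-1 binds, was lower in experiment 1 with -1.93 (SE 0.179, edgeR adjusted p = 9.37e-16). It was tested only through experiment 2, where it is high, since 5 of 6 experiment 1 controls reached the filter's level.

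Likeness of pattern was measured as the root mean square difference in log2 CPM over the 24 wells between a gene and the mean of the 8 members tested in all wells, each centred on its own mean. Of 13834 genes compared, the closest included C1qa (0.169), Lpl (0.197), Fcer1g (0.20) and Fyb (0.224), where the median gene stood at 1.51. C1qa encodes a complement subunit, Lpl a lipoprotein lipase, Fcer1g a signalling chain of Fc receptors and Fyb an adaptor of blood-lineage cells. The genes compared share the same libraries, the wells of an experiment share a batch, and the measure is set largely by the gap between experiments. Fyb had 18.9 ± 4.57 CPM (SD, n = 6) in the experiment 1 controls and 133 ± 10.95 CPM (SD, n = 6) in those of experiment 2. Among the members themselves, Lyz2 (0.263) and Mpeg1 (0.272) lay closest to the mean and Tmem119 (0.786) farthest of those tested. Each tested member is part of that mean, so these distances cannot be set against those of other genes.

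Promoters are shown because members moved together between experiments, and because PU.1, an ETS-family factor required for microglia, is known to bind purine-rich sites of macrophage genes. RefSeq (GRCm38.p6) entries were found for 7 of the 9 genes, all except Csf1r and Tmem119. The 250 bases before the annotated start are printed for the receptors Cx3cr1 and P2ry12 and for Laptm5 and Lyz2. Capitals mark GAGGAA or GGAAGT on either strand.
Cx3cr1, chr9:120068297-120068546, minus strand: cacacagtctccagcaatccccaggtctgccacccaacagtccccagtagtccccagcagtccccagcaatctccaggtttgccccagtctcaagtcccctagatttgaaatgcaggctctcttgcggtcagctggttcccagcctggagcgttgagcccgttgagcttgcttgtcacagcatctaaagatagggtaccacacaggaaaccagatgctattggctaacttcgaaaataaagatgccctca
P2ry12, chr3:59262986-59263235, minus strand: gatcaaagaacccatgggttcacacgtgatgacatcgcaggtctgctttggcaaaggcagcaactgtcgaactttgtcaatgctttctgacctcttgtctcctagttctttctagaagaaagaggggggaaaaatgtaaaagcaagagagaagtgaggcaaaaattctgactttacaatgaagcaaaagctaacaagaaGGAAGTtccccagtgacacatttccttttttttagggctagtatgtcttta
Laptm5, chr4:130913066-130913315, plus strand: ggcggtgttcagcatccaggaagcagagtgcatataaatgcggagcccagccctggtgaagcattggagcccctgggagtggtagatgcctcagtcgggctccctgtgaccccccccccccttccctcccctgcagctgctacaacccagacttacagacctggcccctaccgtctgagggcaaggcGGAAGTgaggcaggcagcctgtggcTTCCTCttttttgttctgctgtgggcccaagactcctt
Lyz2, chr10:117282273-117282522, minus strand: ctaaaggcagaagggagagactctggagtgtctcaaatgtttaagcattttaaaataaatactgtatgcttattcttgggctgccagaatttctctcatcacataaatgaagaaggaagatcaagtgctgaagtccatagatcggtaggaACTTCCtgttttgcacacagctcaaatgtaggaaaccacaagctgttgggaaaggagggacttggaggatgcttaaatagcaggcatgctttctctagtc

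The windows searched reached 50 bases past the start, 300 bases in all, on both strands. GAGGAA was found in the promoters of Aif1 and Laptm5, 2 of 7, and in 28.3% of all 32851 promoters of this length. GGAAGT, added after the promoters had been read, was found in P2ry12, Laptm5 and Lyz2, 3 of 7, against 23.8% of all promoters. GAGGAAGT, in which these overlap, was in 0 of 7 and 3.20% of all. The ETS-IRF composite motif and the CEBP motif TTGCNNCAA were in 0 of 7 member promoters, against 2.72% and 2.08% of all. TATAAA was in Laptm5 alone, 1 of 7, against 13.6% of all. These are matches of letters in the window and say nothing on binding.

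The second question was whether ethanol moved the members within an experiment. At 30 mM, Cx3cr1 and Ly86 rose and Lyz2 and Mpeg1 fell, while Csf1r and Laptm5 did not pass. Thus 2 of 6 tested members passed as higher and 2 as lower, where 3.02% and 6.65% of 13235 genes did. The median log2 fold change of the 6 was 0.11, against 0.02 over all genes tested. Aif1, P2ry12 and Tmem119 had too few counts to be tested.

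Cx3cr1 had 2.68, 5.26 and 7.70 CPM in the experiment 1 controls and 5.66, 12.4 and 16.4 CPM at 30 mM. Of the 6 ethanol wells, 5 lay above every control, and replicate 6 fell within their range. The log2 fold change was 1.07 (SE 0.292, edgeR adjusted p = 0.0124), or means of 5.23 ± 2.08 and 11.4 ± 3.61 CPM (SD, n = 6). Counts per well were 4 to 14 in the controls and 7 to 21 at 30 mM, and 2 of 6 controls against 5 of 6 wells at 30 mM reached the level of 6.67 CPM that the filter asked for in 6 wells of this experiment. The fractalkine gene Cx3cl1, the ligand, fell by 0.38 in log2 units (SE 0.128; edgeR, adjusted p = 0.0481), with group means of 49.8 ± 5.44 CPM without ethanol and 37.7 ± 8.81 CPM with it (SD, n = 6).

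Ly86 had 12.7, 14.8 and 19.3 CPM in the controls and 13.03, 22.8 and 32.0 CPM at 30 mM, and its log2 fold change was 0.62 (SE 0.191; edgeR, adjusted p = 0.0305). Again 5 of 6 ethanol wells lay above every control, with replicate 1 the exception. Its receptor gene Cd180 had a log2 fold change of 0.21 and did not pass (SE 0.273, edgeR adjusted p = 0.692).

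Mpeg1 had 23.6, 28.7 and 32.8 CPM in the controls and 14.6, 20.3 and 24.6 CPM at 30 mM. Of the ethanol wells, 5 lay below every control, and the log2 fold change was -0.48 (SE 0.153, edgeR adjusted p = 0.0363). Lyz2 had 324, 490.1 and 596 CPM in the controls and 278, 376 and 419 CPM at 30 mM, and 5 of 6 controls lay above every ethanol well. Its log2 fold change was -0.40 (SE 0.0924, edgeR adjusted p = 0.00311). DESeq2 called Cx3cr1 alone of the 4, with adjusted p of 0.0524 for Ly86, 0.0854 for Mpeg1 and 0.103 for Lyz2. Mpeg1 also lost the call with upper quartile normalization (edgeR adjusted p = 0.0548) and Ly86 with limma voom (adjusted p = 0.0711). Ly86 and Mpeg1 each lost the call in 7 of 12 fits that left out 1 well, with adjusted p up to 0.107 and 0.111. These wells were control replicates 1, 2, 4 and 5 and 30 mM replicates 2, 3 and 6 for Ly86, and control replicates 1 to 4 and 30 mM replicates 4 to 6 for Mpeg1.

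Csf1r and Laptm5 had log2 fold changes of 0.18 (95% interval -0.26 to 0.62, edgeR adjusted p = 0.661) and 0.04 (-0.30 to 0.39, edgeR adjusted p = 0.914). Laptm5 had 12.2 to 29.7 CPM in the controls and 20.2 to 29.5 CPM at 30 mM, and the lowest wells were control replicates 6 and 5. The ligand genes of the CSF1 receptor, Csf1 (-0.12, SE 0.0694, edgeR adjusted p = 0.312) and Il34 (-0.70, SE 0.292, edgeR adjusted p = 0.127), did not pass either.

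At 10 mM, Cx3cr1 was the single member that passed, of 8 tested, where 0.657% of 13538 genes passed and 0.391% as higher. It had 94.7, 117 and 130.1 CPM in the experiment 2 controls and 132, 142 and 154 CPM at 10 mM. All 6 ethanol wells lay above all 6 controls, which holds for 0.473% of genes tested. The log2 fold change was 0.29 (SE 0.0736, edgeR adjusted p = 0.0357). The call did not hold with DESeq2 (adjusted p = 0.0652), in a fit of all 24 wells (edgeR adjusted p = 0.130) or with the replicate block. Nor did it hold in 7 of 12 fits that each left out 1 well (control replicates 1, 2, 5 and 6, 10 mM replicates 2, 3 and 4), although the log2 fold change stayed between 0.24 and 0.33.

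The other tested members did not pass at 10 mM. Ly86 had 201, 221 and 248 CPM in the controls and 211, 253 and 256 CPM at 10 mM, and its log2 fold change was 0.16 (SE 0.0620; edgeR, adjusted p = 0.307). Mpeg1 had -0.10 (95% interval -0.23 to 0.02), Lyz2 -0.08 (-0.17 to 0.02), Laptm5 0.02 (-0.10 to 0.14) and Csf1r 0.04 (-0.14 to 0.23). Aif1 had 0.20 (-0.05 to 0.44) and Tmem119 -0.29 (-0.73 to 0.14). The median of the 8 tested members was 0.03, against -0.0023 over all genes tested.

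**Figure D4:**
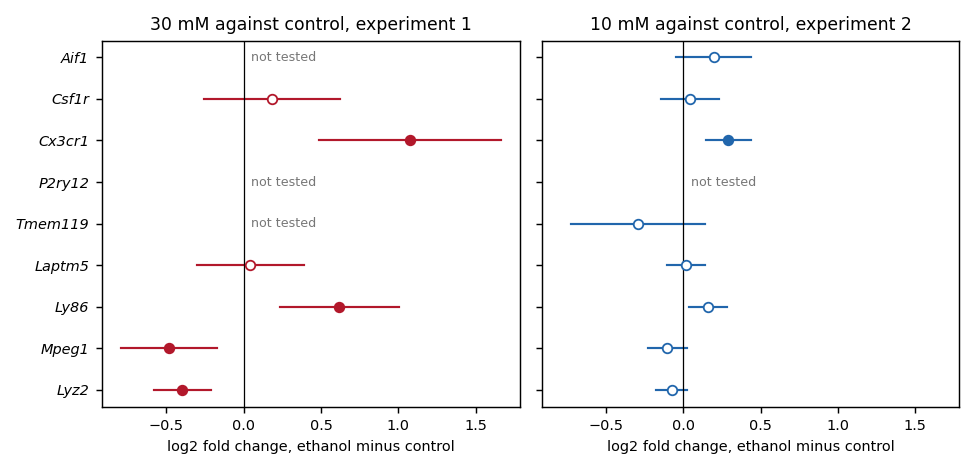
Log2 fold change of each member, ethanol minus control, with its 95% interval (horizontal axis), at 30 mM in experiment 1 and at 10 mM in experiment 2; filled points had an adjusted p under 0.05 (edgeR). Cx3cr1 is filled in both panels, and Ly86, Mpeg1 and Lyz2 at 30 mM.

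Whether the ethanol effect differed between the doses was tested over all 24 wells. No member of the 8 tested passed in edgeR's quasi-likelihood test, where 3.28% of 14655 genes did, and 4 had an unadjusted p under 0.05. DESeq2 and limma voom called 0 as well. The differences of log2 fold changes, 30 mM minus 10 mM, were 0.76 for Cx3cr1 (SE 0.258, 95% interval 0.25 to 1.28, edgeR adjusted p = 0.0837) and -0.33 for Lyz2 (SE 0.110, edgeR adjusted p = 0.0743). They were 0.44 for Ly86 (edgeR adjusted p = 0.168) and -0.39 for Mpeg1 (edgeR adjusted p = 0.166). Lyz2 passed with the replicate block (edgeR adjusted p = 0.0139) and with no filter on low counts (edgeR adjusted p = 0.0199). It also passed without 30 mM replicate 1 or 2 or without control replicate 6 of experiment 1 (edgeR adjusted p from 0.00221 to 0.0390). Without 30 mM replicate 1, Ly86 passed (edgeR adjusted p = 0.0431), and without 30 mM replicate 6, Cx3cr1 passed (edgeR adjusted p = 0.0448).

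Other myeloid genes were read beside the members. At 30 mM, 19 of the 29 general myeloid genes were tested, and Cyba, a subunit of the phagocyte oxidase, passed as lower (log2 fold change -0.46, edgeR adjusted p = 0.0106) while none passed as higher. Tyrobp had -0.17 and C1qa 0.11, neither past the threshold. Of 5 tested genes of activated microglia, Spp1 (-0.94, edgeR adjusted p = 7.59e-11), Gpnmb (-0.74, edgeR adjusted p = 9.31e-09) and Axl (-0.53, edgeR adjusted p = 0.000124), fell. Of 4 tested border macrophage markers, 1 passed, the chemokine gene Pf4. It fell by 0.91 (SE 0.140, edgeR adjusted p = 8.48e-06), from 75.4 ± 19.6 to 40.5 ± 8.51 CPM (SD, n = 6). The other 3 did not pass, and the median of the 4 was 0.15. At 10 mM, 0 of 28 general myeloid genes passed. Of 6 tested other microglia genes, 1 passed, Fcrls, which rose by 0.35 (SE 0.0920, edgeR adjusted p = 0.0417). The median of these 6 was -0.09, and 4 of them had negative values. Fcrls had 65.3 ± 5.08 CPM in the experiment 2 controls and 82.9 ± 13.4 CPM at 10 mM (SD, n = 6).

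Markers of other cells also moved at 30 mM, where 3.02% of all genes tested passed as higher and 6.65% as lower. There, 5 of 7 astrocyte markers and 6 of 10 oligodendrocyte markers rose, while 5 of 8 mural and fibroblast markers and 1 oligodendrocyte marker, Olig1 (-0.25), fell. Astrocyte markers summed to 3753 to 4370.3 CPM in the controls and 4901.5 to 6107 CPM at 30 mM. Mural and fibroblast markers summed to 259 to 378 CPM at 30 mM, below every control. The oligodendrocyte sum of 30 mM replicate 1 was 14496 CPM, against 8453 to 9425 CPM in the other 5 wells. Without that well, the same 4 members were called at 30 mM. At 10 mM, where Cx3cr1 was called, 0.391% of all genes tested passed as higher and 0.266% as lower. Among the markers, 2 of 10 of oligodendrocytes rose (Mag 0.36 and Cnp 0.25), as did 1 of 6 neuron markers (Tubb3, 0.24). Of 7 mural and fibroblast markers, 1 fell (Dcn, -0.39). The part of these markers in the members' values was not tested.

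The members were last set against the summed counts of the 29 general myeloid genes in the same well, which were 573 to 1152 counts in experiment 1 and 4825 to 7505 in experiment 2. The ratio was chosen after the values were seen and is given as a description. Per 100 myeloid counts, Cx3cr1 had 0.886 ± 0.268 counts in the experiment 1 controls and 2.07 ± 0.536 at 30 mM (SD, n = 6), 2.34 times as many. The wells did not overlap, although the highest control and the lowest 30 mM well nearly met. In experiment 2 it had 2.71 ± 0.382 in the controls and 3.29 ± 0.375 at 10 mM (SD, n = 6), with overlap. By this measure, Cx3cr1 in the experiment 1 controls stood at 0.327 times its level in those of experiment 2, with no overlap. The experiment 1 control values rest on 4 to 14 counts of Cx3cr1 per well. In the experiment 2 controls, Tyrobp (mean 750 CPM), C1qb (746), C1qc (488) and C1qa (412) led the myeloid sum (mean 4337 CPM). The cause of the difference was not tested.

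Laptm5 per 100 myeloid counts was 4.16 ± 1.30 in the experiment 1 controls and 8.51 ± 0.763 in those of experiment 2 (SD, n = 6), again without overlap. Ly86 had 2.65 ± 0.493 against 5.11 ± 0.585, without overlap between the controls, and 4.27 ± 1.04 at 30 mM (SD, n = 6). Lyz2 went the opposite way, with 83.1 ± 10.6 in the experiment 1 controls, 66.9 ± 5.72 at 30 mM, 61.9 ± 2.17 in the experiment 2 controls and 58.4 ± 1.75 at 10 mM (SD, n = 6). Mpeg1 had 4.95 ± 0.984 in the experiment 1 controls and 3.67 ± 0.353 at 30 mM (SD, n = 6), without overlap, against 6.05 ± 0.189 in the experiment 2 controls. The lowest experiment 1 control (4.123) and the highest 30 mM well (4.118) of Mpeg1 nearly met. Csf1r, with 2.57 ± 0.821 and 1.85 ± 0.175 in the control groups (SD, n = 6), overlapped, as did Aif1 with 0.842 ± 0.285 and 0.916 ± 0.115 (SD, n = 6). Tmem119 and P2ry12 were 2.01 and 2.51 times higher in the experiment 1 controls by this measure, with overlap and on few counts. Per myeloid count, the wells of the control groups did not overlap for Cx3cr1, Laptm5 and Ly86, which were lower in experiment 1, and for Lyz2, which was higher. For Lyz2 the nearest control wells had 64.8 and 64.2. Between the ethanol wells, Ly86 and Lyz2 overlapped. Cx3cr1, Laptm5 and Mpeg1 (0.655 times), lower at 30 mM, and Csf1r (1.64 times), higher, did not. The share of all genes without overlap by this measure was not computed.

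**Figure D5:**
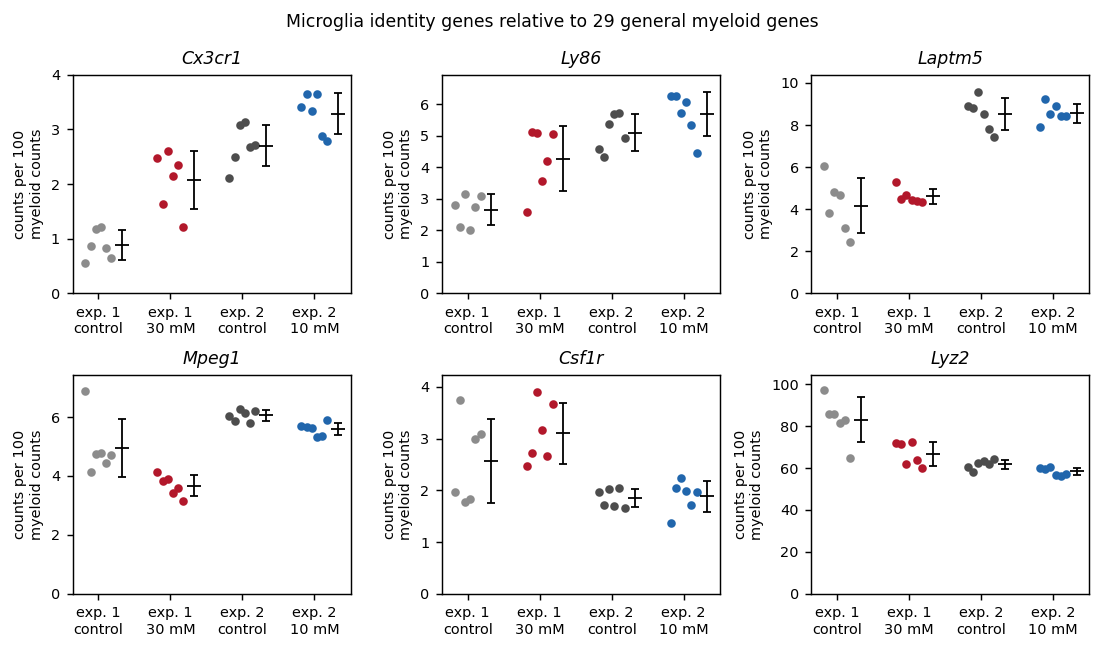
Counts of 6 members per 100 counts of the 29 general myeloid genes (vertical axis) in each well; points are wells and the dash with its bar is the mean ± SD. Cx3cr1 has no overlap between the 30 mM wells and their controls, and Lyz2 is highest on average in the experiment 1 controls.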

How the data were processed

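RNA of 24 wells in 4 groups of 6 was read by 3′ tag sequencing, single-end, per the labels' protocols. The authors deposited raw counts per gene, with 1 column per well. The submitters' processing notes name cutadapt 1.18, STAR and GRCm39, with no role or order. The counter, annotation release, strand setting and duplicate removal are not given in the sources used here, so counts of overlapping genes or near copies are uncertain. Symbols were matched by Ensembl identifier for 52083 rows (94.1%). Columns were mapped to wells through the sample descriptions, which also number the replicates.

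Counts were scaled by TMM, genes with low counts were removed (filterByExpr, min.count 10), and edgeR 4.0.16 (R 4.3.3) gave quasi-likelihood tests, with p-values adjusted by Benjamini-Hochberg over all genes tested and calls at 0.05. The 12 wells of an experiment entered the fit of its dose, the difference of doses over all 24 wells, and the experiments by their control wells and by their ethanol wells. SE is that of the log2 fold change, and 95% intervals are from it. CPM used the total count. The script was tested on simulated data before use. No pair of wells within a group agreed within sampling noise (largest chi-square p of 3.4e-11 over 60 pairs).

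The members and all lists were chosen with earlier results of these data known. Named are all members, their ligands and partner, the up to 4 genes of each other list with the highest level in the experiment 2 controls, and the 5 genes of most similar pattern, except for items that are not reported here. S100a9, Retnlg, Ly6c2, Nkg7, Cyba, Axl, Olig1, Mag and Gpr34 were named after their values were seen, and Lyz1 as a near copy of Lyz2. Alternatives covered normalization, filter, DESeq2 1.42.0, limma 3.58.1 (voom), a joint fit, a replicate block and leaving out each well. Promoters came from RefSeq tables of GRCm38.p6, which was used for sequence alone.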

Additional observations from a re-analysis of the deposited data

Results flagged for a closer look

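The gap between an extreme well and its neighbour was set against the range of its group in 44 groups of values, and 5 had 1 well apart from the rest by Dixon's criterion, where chance gives 2.2. Tmem119 had 18.8 CPM in control replicate 6 of experiment 2, where the other 5 wells had 10.4 to 11.8 CPM, and 6.21 CPM in replicate 3 at 10 mM, where the others had 10.0 to 11.6 CPM. Laptm5 had 321 CPM in replicate 1 at 10 mM (others 374 to 399 CPM), and Ly86 had 211 CPM in replicate 6 at 10 mM (others 245 to 256 CPM). The summed level of the 9 genes was 3599.7 CPM in control replicate 4 of experiment 2, where the other wells had 3770 to 3865 CPM. These groups of values cover the 9 genes, their sum and the total count, and the 5 wells are all in experiment 2.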

How the results depend on the processing

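The members tested between experiments kept their lower level in experiment 1 and its call in all alternatives, with 8 or 9 called between controls and 7 or 8 between ethanol wells. The exception was P2ry12, tested between ethanol wells only with no filter (edgeR adjusted p 0.224) or a minimum of 3 counts (edgeR adjusted p 0.149) and not called. In the main fits, 43.6% of all genes tested passed between controls and 31.8% between ethanol wells. Aif1 and Cx3cr1 in both fits, and Tmem119 between controls, were tested only through experiment 2, where they are high. A difference was thus built into their being tested, and the calls of these members carry this limit in the alternatives too. At 30 mM, DESeq2 called 1 member in place of 4, and leaving out 1 well gave 2 to 4, with 2 without control replicate 1, 2 or 4 or 30 mM replicate 6. At 10 mM, 0 members were called in place of 1 with DESeq2 (39 genes in place of 89), in a fit of all 24 wells (21 genes) and with the replicate block, and leaving out 1 well gave 0 to 1 members and 37 to 95 genes. For the difference of doses, 1 member was called with no filter on low counts and 1 with the replicate block, and leaving out 1 well gave 0 to 2 members and 329 to 759 genes. The cause was not tested. The replicate numbers did not pair the wells, with correlations of same-numbered wells from -0.18 to 0.25 at 30 mM and from -0.04 to 0.04 at 10 mM. Each well correlated best with its own number in 1 of 6 cases at 30 mM and 0 of 6 at 10 mM. With the block, 1208 genes were called at 30 mM, 68 at 10 mM and 461 for the difference of doses.

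Reversals touched values that did not pass in any setting. The difference of doses for Aif1 was 0.0161 with upper quartile normalization and -0.28 to 0.0457 with 1 well left out. For Laptm5 it was -0.0427 with no filter, -0.0204 with a minimum of 3 counts and -0.12 to 0.0780 with 1 well left out. Leaving out 1 well also gave -0.0774 to 0.12 for Laptm5 at 30 mM, -0.0131 to 0.0564 for Laptm5 at 10 mM and -0.0084 to 0.13 for Csf1r at 10 mM. Depth limits P2ry12, Tmem119, Aif1 and Cx3cr1 in experiment 1, where few counts stand behind each value.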

Other observations

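Gpr34, a lysophosphatidylserine receptor gene of microglia, had 0 counts in 8 of the 12 wells of experiment 1 and 5 to 16 counts in every well of experiment 2. Its mean level was 7.57 ± 2.56 CPM in the experiment 2 controls and 6.87 ± 2.46 CPM at 10 mM (SD, n = 6). Cd79b, listed among lymphocyte markers and a B cell receptor chain that microglia are also known to express, had 0 or 1 count in each well of experiment 1 and 2 to 7 counts in each of experiment 2. Lyz2 made up 83.1% of the counts of the 9 genes in the experiment 1 controls and 70.8% in those of experiment 2, so their sum mostly reflects this gene. Without Lyz2, the sum of the other 8 was 11.5 times higher in the experiment 2 controls than in the experiment 1 controls, against 6.58 times with it.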
